A study of Arabidopsis thaliana with 12 samples.

Results

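The comparison set the 3 Col-0 libraries against the mean of 3 other Arabidopsis thaliana lines, w.tEDS1, eds1-2 and R493A, in order to describe what separated Col-0 from the rest whatever EDS1 allele a line carried. Its members were chosen by the genotype label, and they are all 12 libraries of the series, 3 in Col-0 and 9 in the other lines. Each line had equal weight in the mean, and each comparison used gene counts only. Col-0 is the wild-type accession with its own EDS1. The labels give the other genotypes by name only: eds1-2 is known as a loss-of-function allele, w.tEDS1 by its name carries wild-type EDS1, and the name R493A stands for an exchange of arginine for alanine. All groups had received the same bacteria, so no group is uninfected: leaves of 4-week-old plants, grown in 10 h of light at 22 °C, were infiltrated with Pst AvrRps4 at an OD600 of 0.005 and taken after 4 h. Each library pooled 4 plants, and the labels do not say in which accession the 3 lines were made, how many independent lines stand behind w.tEDS1 and R493A, or which promoter drives EDS1 in them. As background, the eds1-2 allele was first isolated in the accession Landsberg erecta.

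AvrRps4 is a bacterial effector that Arabidopsis detects through TIR-type immune receptors, and such receptors act through EDS1, a lipase-like protein that pairs with PAD4 or SAG101 and engages the helper receptors ADR1 and NRG1. EDS1 with PAD4 promotes salicylic acid synthesis and the genes that salicylic acid induces. Accessions differ in sequence and in gene content at many loci, and resistance gene clusters are among the most variable of these. The reads had been aligned to TAIR10, the reference assembled from Col-0, so a lower count in another line can be fewer transcripts or fewer reads that could be placed, and these counts cannot tell the 2 apart.

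Of 18770 genes tested, 1285 (6.85%) were higher in Col-0 and 666 (3.55%) were lower than the mean of the other lines at an adjusted p under 0.05 by edgeR's quasi-likelihood test, 10.4% of genes in all. Such genes are referred to as called. The difference was at least 1 on the log2 scale for 613 of the higher genes and 146 of the lower ones. In 553 of the 1285 and 491 of the 666, the 3 Col-0 libraries did not overlap the 9 others; over all tested genes, Col-0 lay above every other library in 4.3% and below every other library in 3.96%. A joint test among w.tEDS1, eds1-2 and R493A, which does not use Col-0, called 40 genes (0.213%), and 30 of these were also called for Col-0. Against single lines, which share the Col-0 libraries, 0.581% of genes were higher and 0.506% lower than in w.tEDS1, 1.44% and 0.602% than in eds1-2, and 1.51% and 0.266% than in R493A. Of the 18770 genes, 80 were called higher and 21 lower in Col-0 against each of the 3 lines. On chromosome 3 lay 62 of the 80 and 11 of the 21. A call against the mean thus does not mean a call against every line.

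The sums of gene counts ranged from 19273912 to 24572145 per library. Levels are given as CPM, counts scaled to library size. The first principal component of log2 CPM took up 40.4% of variance; scores were −69.9, −97.5 and −4.11 for replicates 1, 2 and 3 of Col-0 and ran from −0.982 to 50.1 in the 9 other libraries. Col-0 replicates 1 and 2 were sequenced in a lane that held no other library (lane 6). Col-0 replicate 3 shared lane 7 with the 3 w.tEDS1 libraries, eds1-2 replicate 2 and R493A replicate 1. A difference that is seen in Col-0 replicates 1 and 2 but not in replicate 3 cannot be told apart from a difference between lanes. With replicate 3 as the only Col-0 library, 39 genes (0.202%) were higher and 11 (0.0571%) lower; within lane 7 alone, with 2 residual degrees of freedom, 18 were higher and 6 lower. Without replicate 1 the numbers were 334 higher and 56 lower, without replicate 2 they were 294 and 98, and without replicate 3 they were 2695 and 2006.

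Called genes differed in how far each Col-0 library carried them. For the 949 higher genes on chromosomes other than 3, the median log2 difference from the mean of the lines was 0.89 in Col-0 replicate 1, 1.18 in replicate 2 and 0.34 in replicate 3, and replicate 3 had the same sign in 851 of them. For the 519 lower genes on those chromosomes, the medians were −0.71, −0.71 and −0.48, and replicate 3 had the same sign in all 519. On chromosome 3, too, the medians were smallest in size in replicate 3. They were 1.017, 1.301 and 0.469 for its 336 higher genes, where replicate 3 had the same sign in 314. For its 147 lower genes they were −0.815, −0.832 and −0.519, with the same sign in all 147. The signs of replicate 3 are a description, since that library took part in the call.

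**Figure D1:**
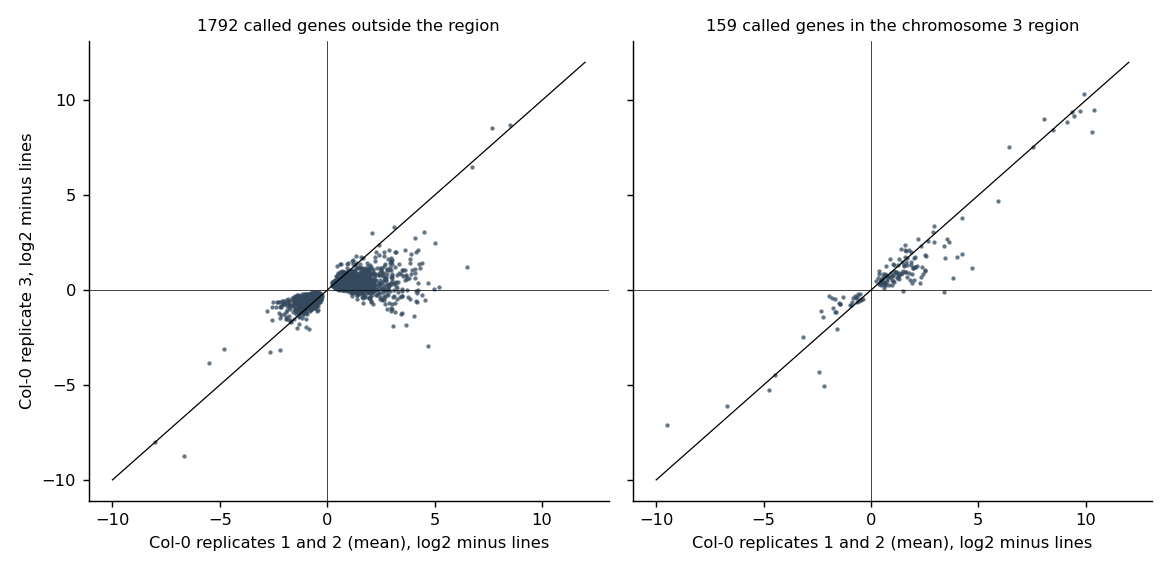
Log2 difference of each called gene from the mean of the 3 lines, in Col-0 replicate 3 (vertical) against the mean of Col-0 replicates 1 and 2 (horizontal). Each point is a gene, the diagonal marks equal differences, the left panel holds 1792 called genes outside 15 to 19 Mb of chromosome 3 and the right panel 159 within it. Higher genes outside the region lie mostly between the diagonal and 0, and the genes of the region lie closer to the diagonal.

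Genes called with Col-0 replicate 3 alone lay mostly on chromosome 3 around EDS1, with 45 of 50 on that chromosome. Called genes whose Col-0 libraries did not overlap the others numbered 191 higher and 107 lower on chromosome 3, where 3678 of the 18770 genes were tested. On the other chromosomes, which held most of the tested genes, they numbered 362 and 384. Between 15 and 19 Mb, limits chosen after the positions of the calls were seen, 504 genes were tested, of which 125 were higher in Col-0 and 34 lower. That is 31.5%, beside 9.81% in the rest of the genome. By 1 Mb, the share called was 46.8% from 15 to 16 Mb, 31.1% from 16 to 17 Mb, 39.0% from 17 to 18 Mb and 21.6% from 18 to 19 Mb. The windows just before hold few tested genes but many calls, with 3 of 5 from 12 to 13 Mb, 1 of 2 from 13 to 14 Mb and 6 of 16 from 14 to 15 Mb, so the calls do not begin at 15 Mb. With replicate 3 alone, 2 of 5 genes were called from 12 to 13 Mb. With Col-0 replicate 3 alone, 40 of 518 genes tested there were called (7.72%), beside 10 of 18749 elsewhere (0.0533%). Within lane 7 alone the region held 15 higher and 4 lower genes of 516. Over all of chromosome 3 the share called was 13.1%, and on the other chromosomes it ranged from 9.31% on chromosome 5 to 10.3% on chromosome 1.

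**Figure D2:**
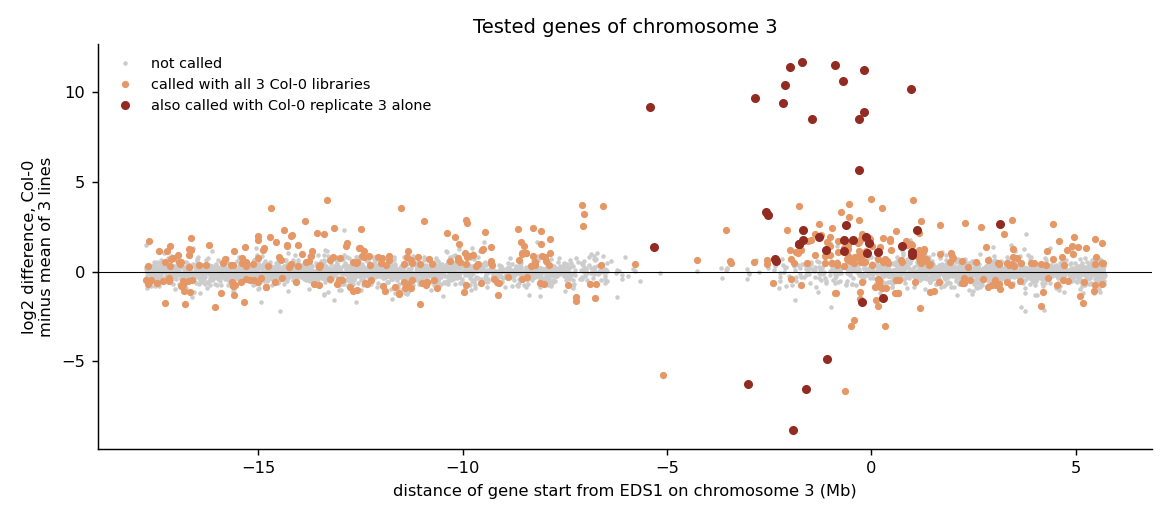
Log2 difference between Col-0 and the mean of the 3 lines for every tested gene of chromosome 3, against the distance of its start from EDS1 in Mb. Grey points are not called, orange points are called with all 3 Col-0 libraries, and dark red points are also called with Col-0 replicate 3 as the only Col-0 library. The dark red points gather within a few Mb of 0, with the largest differences in both directions.

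The largest differences of the region were genes with reads in Col-0 and nearly none in any other line. HR4 (AT3G50480, chromosome 3, 18733021 to 18734420 in TAIR10.1), a homologue of the mildew resistance protein RPW8, lay at 817, 1654 and 631 CPM in the 3 libraries of Col-0, replicate 1 first. In the 9 other libraries it lay between 0.366 and 2.61 CPM, with a median of 0.767. All Col-0 libraries were thus far above the rest, the log2 difference was 10.17 (SE 0.34, adjusted p = 7.79e-08, edgeR), and it was 9.45 with replicate 3 alone. Against each line in turn, HR4 was higher by 9.29 than in w.tEDS1, by 10.65 than in eds1-2 and by 10.56 than in R493A on the log2 scale.

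CRK4, a cysteine-rich receptor-like kinase, had 24.2, 42.6 and 8.2 CPM in Col-0 and at most 0.0435 CPM elsewhere. Its 1616 reads in Col-0 stood against 1 read in the 9 other libraries, a ratio of 4974 with a 95% counting interval from 892 to 196592. AT3G44430, which the annotation calls uncharacterised, had 26.3, 23.6 and 33.2 CPM in Col-0 against 1 read elsewhere. AT3G43740, a leucine-rich repeat protein, had 20.7, 21.3 and 21.4 CPM against 3 reads elsewhere. These genes showed the same on and off pattern in w.tEDS1, eds1-2 and R493A, with differences among the Col-0 libraries that were small next to the gap. AT3G47680, annotated as a DNA binding protein, had 19.2, 24.9 and 18.0 CPM against 1 read; it overlaps AT3G47675, and reads of the 2 cannot be told apart. AT3G43955 had no read in any of the 9 other libraries and at least 13.0 CPM in each Col-0 library, which makes it at least 1001-fold higher against a floor of 3 counts over the 9 libraries. HSD2, a hydroxysteroid dehydrogenase of seed oil bodies, had 11.8, 16.2 and 13.7 CPM in Col-0 and at most 0.229 CPM elsewhere. The counting intervals and the floor cover counting error only.

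Other genes of the region were expressed in every line and differed by a smaller step, with every Col-0 library above the 9 others. UXS5, a UDP-xylose synthase, had 43.5, 43.3 and 33.0 CPM in Col-0 and between 10.3 and 12.7 CPM elsewhere, a log2 difference of 1.73 (SE 0.10, adjusted p = 3.16e-06). RPP13, a coiled-coil receptor for downy mildew, had 34.4, 40.8 and 36.1 CPM against 4.22 to 10.3 (2.58, SE 0.19). RPP1, a TIR-type receptor gene of a downy mildew resistance cluster, had 64.3, 108 and 57.0 CPM against 16.9 to 32.0 (1.75, SE 0.17). The 3 genes did not overlap between Col-0 and the others. Like the other genes of this paragraph, they were named because they were called with replicate 3 alone, so that call adds no support. NIT1, a nitrilase, had 2307, 1508 and 1602 CPM against 566 to 723, and its neighbour NIT3 had 37.3, 20.7 and 23.3 CPM against 6.44 to 12.2; both differed by 1.51 on the log2 scale. MAG1, a retromer subunit, had 81.1, 83.1 and 77.8 CPM against 36.2 to 43.0 (1.04, SE 0.07). SNRK2.2, a kinase of abscisic acid signalling, had 145, 143 and 142 CPM against 69.1 to 81.8 (0.91, SE 0.07). For the last 2 the Col-0 libraries were within a few CPM of each other, and no other library reached them.

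Fewer genes of the region were lower in Col-0. FAR8 (AT3G44560, chromosome 3, 16151123 to 16154607), a fatty acyl reductase, had 0.336, 0.535 and 0.646 CPM in Col-0 and between 29.6 and 65.4 CPM elsewhere, with a median of 47.5. Its log2 difference was −6.55 (SE 0.28, adjusted p = 3.4e-07), and it was −6.24 against w.tEDS1, −6.62 against eds1-2 and −6.79 against R493A. AT3G44070, a glycosyl hydrolase of family 35, had 2 reads in Col-0 and between 13.2 and 20.4 CPM elsewhere. AT3G45440, a lectin receptor kinase, had 0.168, 0.487 and 0.199 CPM in Col-0 and between 6.61 and 9.61 elsewhere (−4.87, SE 0.28). GSA2, an enzyme that makes the chlorophyll precursor 5-aminolevulinate, had 49.6, 48.9 and 70.6 CPM against 144 to 175 (−1.46, SE 0.13). FAR8, AT3G44070 and AT3G45440 thus had few reads in Col-0 and many in every other line.

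**Figure D3:**
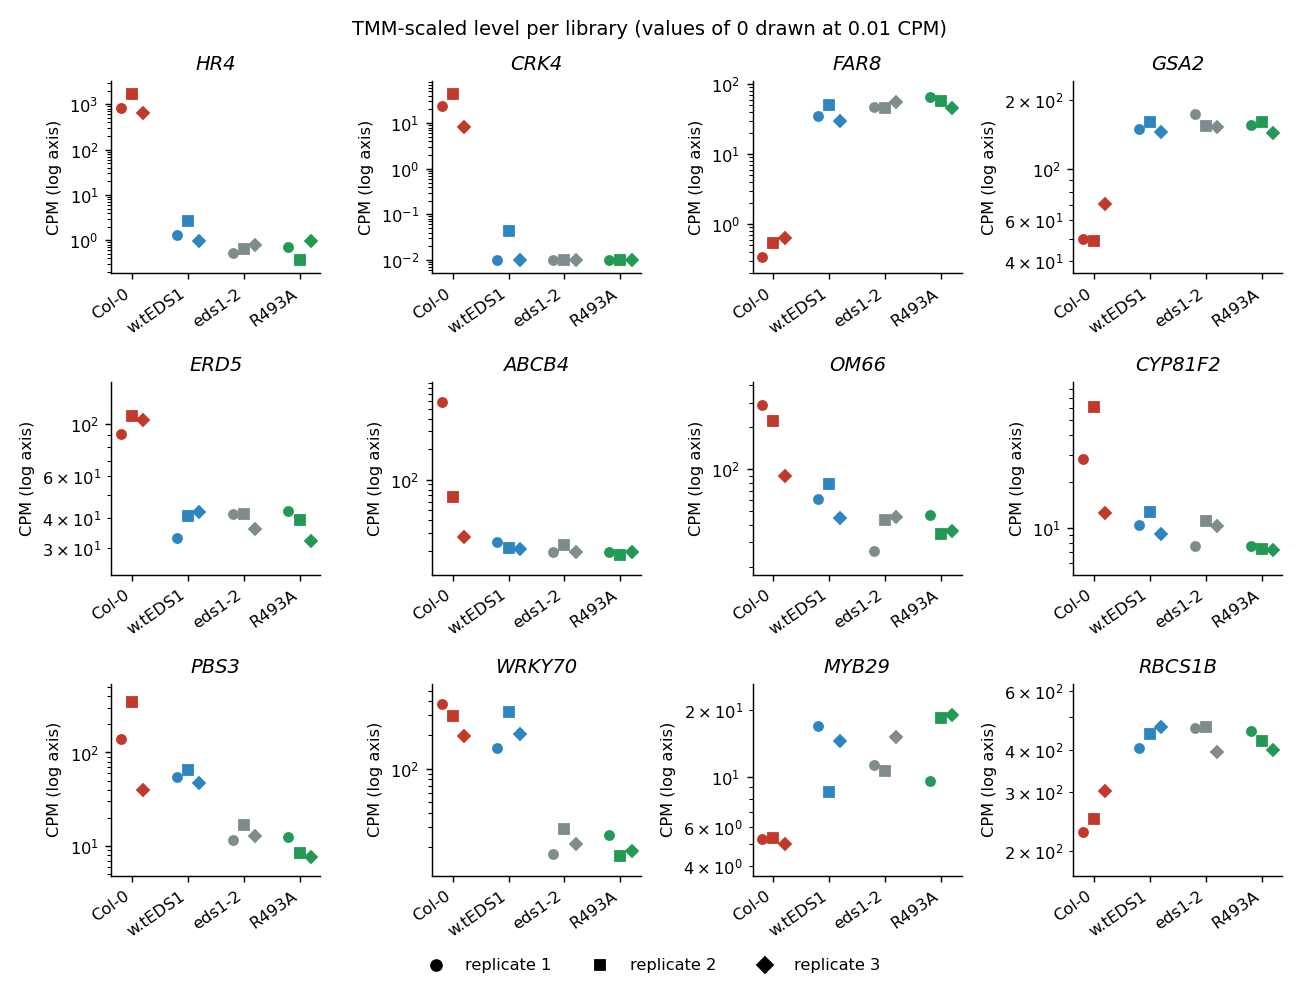
TMM-scaled CPM of 12 genes in each of the 12 libraries, on log axes that differ between panels; circles, squares and diamonds are replicates 1, 2 and 3, and a value of 0 is drawn at 0.01. HR4, CRK4, FAR8, GSA2 and ERD5 separate Col-0 from all other lines in each library, ABCB4, OM66 and CYP81F2 are highest in Col-0 replicates 1 and 2, PBS3 and WRKY70 are also raised in w.tEDS1, and MYB29 and RBCS1B are lower in Col-0.

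AT3G44430 and CRK4 had larger increases than HR4, and AT3G44070 a larger decrease than FAR8, each at lower CPM. The bases upstream of HR4 and FAR8 are shown as examples of large differences in each direction at high read numbers. Each is the 250 bases before the annotated start, 5′ to 3′ on the gene's strand, from the TAIR10.1 RefSeq assembly (chr3:18732771-18733020 on the plus strand and chr3:16150873-16151122 on the plus strand). Capitals mark the W-box core TTGAC or its reverse complement, to which WRKY factors are known to bind.
HR4: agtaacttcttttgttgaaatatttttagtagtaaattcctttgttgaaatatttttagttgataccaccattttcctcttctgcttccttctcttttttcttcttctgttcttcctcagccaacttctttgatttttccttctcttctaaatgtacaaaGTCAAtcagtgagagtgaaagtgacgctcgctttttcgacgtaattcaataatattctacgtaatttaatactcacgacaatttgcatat
FAR8: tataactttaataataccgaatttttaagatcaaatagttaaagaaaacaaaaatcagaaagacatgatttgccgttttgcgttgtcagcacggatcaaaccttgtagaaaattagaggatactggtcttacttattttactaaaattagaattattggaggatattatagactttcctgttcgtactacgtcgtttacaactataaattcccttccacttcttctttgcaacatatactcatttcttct
The HR4 sequence holds 1 W-box core and the FAR8 sequence 0. The sequence of these stretches in the other lines was not analysed here.

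Genes with the same behaviour as the region were few elsewhere. QQS, an orphan gene known to affect leaf starch, lies about 12.3 Mb along chromosome 3 and had 8.06, 4.48 and 10.8 CPM in Col-0 against 2 reads in the 9 other libraries, a ratio of 771 (95% counting interval 212 to 6384). ERD5, a proline dehydrogenase, lies near it and had 90.4, 108 and 103 CPM against 31.9 to 43.1 (1.37, SE 0.11, adjusted p = 3.28e-05). Off chromosome 3, AT5G20750 on chromosome 5, annotated as uncharacterised, had no read in Col-0 and between 3.8 and 7.85 CPM in each of the 9 others, so that it was at least 132-fold lower against a floor of 3 counts over the Col-0 libraries. It was the only gene with no read in Col-0 and at least 50 in every other library, as AT3G43955 was the only one the other way round. Of the 46 genes called both with all Col-0 libraries and with replicate 3 alone, 44 were on chromosome 3; the remaining 2 were AT5G20750 and AT1G57650, which had 6.71 to 19.3 CPM in Col-0, 3.38 to 7.29 CPM in w.tEDS1 and eds1-2 and at most 0.0443 CPM in R493A.

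EDS1 itself was not called between Col-0 and the mean of the other lines, a result that 1 library decided. Its level was 32.5, 72.0 and 23.2 CPM in Col-0, 124, 196 and 111 CPM in w.tEDS1, 3.81, 4.09 and 3.93 CPM in eds1-2, and 31.1, 23.5 and 19.4 CPM in R493A. Col-0 lay between lines, below w.tEDS1 and above eds1-2, and overlapped R493A; the log2 difference from the mean was 0.82 (SE 0.29, adjusted p = 0.0863) while the joint test among the 3 lines gave an adjusted p of 0.0009. Without Col-0 replicate 2 the difference was 0.21 (adjusted p = 0.661), and without replicate 3 it was 1.11 (adjusted p = 0.0158). EDS1B, the neighbouring copy of EDS1, had 13.3, 15.4 and 1.24 CPM in Col-0 and between 0.0861 and 2.53 elsewhere (4.06, SE 0.55, adjusted p = 0.00286). Replicate 3 lay within the range of the other lines for EDS1B, and its difference was 1.05 (adjusted p = 0.617) with that library alone. Reads shared by these near-identical copies make both counts uncertain.

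Genes of salicylic acid signalling formed the largest group of called genes among the lists. By list median they separated Col-0 from eds1-2 and R493A more than from w.tEDS1. Of 14 tested genes of salicylic acid and N-hydroxypipecolic acid metabolism, 12 were higher in Col-0 and none lower. The median log2 difference was 2.06, against −7.15e-05 over all tested genes. By line, the list median was 1.09 against w.tEDS1, 2.66 against eds1-2 and 2.49 against R493A. By library, it was 1.65, 3.06 and 0.39 in Col-0 replicates 1, 2 and 3. PBS3, the enzyme that conjugates isochorismate to glutamate, had 139, 346 and 39.3 CPM in Col-0, 54.3, 65.6 and 47.8 in w.tEDS1, 11.7, 16.8 and 12.9 in eds1-2, and 12.6, 8.43 and 7.57 in R493A. It was higher in Col-0 than the mean of the lines by 3.17 (SE 0.40, adjusted p = 0.0019), with 1.64 against w.tEDS1 (adjusted p = 0.126), 3.66 against eds1-2 (0.0148) and 4.19 against R493A (0.00739). Col-0 replicate 3 was below all 3 w.tEDS1 libraries for this gene. SARD1, a transcription factor of the pathway, differed by 2.71 (SE 0.29), and UGT76B1, which glucosylates salicylic and N-hydroxypipecolic acid, by 1.98 (SE 0.27).

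Of 22 tested salicylic acid response genes, 17 were higher in Col-0 and none lower, with a median of 2.45. By line, the median was 0.40 against w.tEDS1, 3.25 against eds1-2 and 3.50 against R493A. WRKY70, a regulator downstream of salicylic acid, had 380, 298 and 196 CPM in Col-0 and 153, 323 and 205 in w.tEDS1, while the eds1-2 and R493A libraries lay between 16.7 and 28.9. Col-0 and w.tEDS1 overlapped, and WRKY70 differed among the 3 other lines (adjusted p = 0.0009). WRKY54 and WRKY51 showed the same order, with log2 differences of 2.46 (SE 0.25) and 4.18 (SE 0.40). The joint test among the lines called 7 of the 22 response genes and 1 of the 14 metabolism genes, beside 0.213% of all genes. Without Col-0 replicate 1 the counts were 7 metabolism and 12 response genes, without replicate 2 they were 6 and 11, and with replicate 3 alone they were 0 and 1, the last being WRKY70 (2.05, adjusted p = 0.0318). With the 9 other libraries as 1 group, which puts the differences among the lines into the spread, 7 metabolism and 4 response genes were called, and WRKY70, WRKY51, WRKY54 and SARD1 lost the call, with an adjusted p of 0.196, 0.182, 0.195 and 0.116. With the lane as a covariate, replicate 3 alone sets the Col-0 level, since the lane of replicates 1 and 2 held no other line. The medians were then 0.39 for metabolism and 0.73 for response genes.

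Of 11 tested genes of the EDS1 module, 7 were higher and none lower, with a median of 0.69. ADR1-L2, a helper receptor, had 83.8, 101 and 77.6 CPM in Col-0 and between 37.7 and 94.1 elsewhere (0.74, SE 0.15, adjusted p = 0.0162). PAD4, the partner of EDS1, differed by 2.57 (SE 0.49), a value that rested on Col-0 replicate 2 at 302 CPM: without it the difference was 0.85 (adjusted p = 0.0928). Without Col-0 replicate 1 the module had 2 called genes, without replicate 2 it had 1 and without replicate 3 it had 10, all higher.

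**Figure D4:**
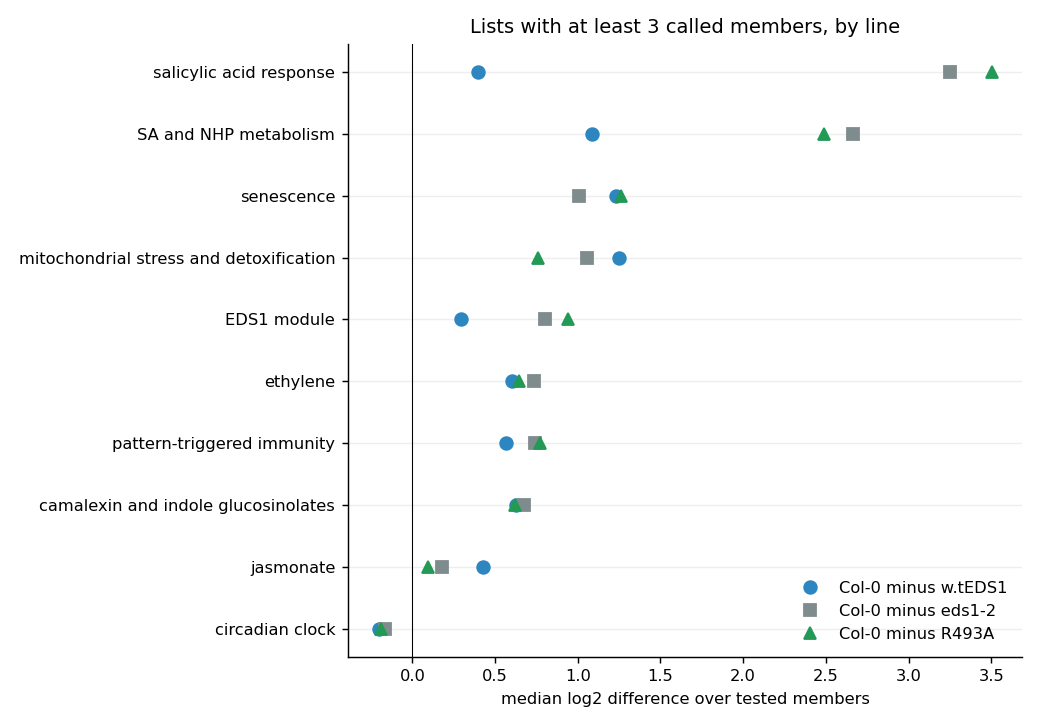
Median log2 difference between Col-0 and each other line over the tested members of the 10 lists with at least 3 called members; the 3 comparisons share the Col-0 libraries. The salicylic acid response median is 0.40 against w.tEDS1 and 3.25 and 3.50 against eds1-2 and R493A, while the medians of pattern-triggered immunity, ethylene and camalexin and indole glucosinolates are 0.57 to 0.77, 0.60 to 0.74 and 0.62 to 0.67 across the lines.

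Stress and detoxification genes were higher in Col-0 with list medians above 0 against each line. Of 11 tested genes of mitochondrial stress and detoxification, 7 were higher and none lower, with a median of 1.14 against the mean, 1.25 against w.tEDS1, 1.06 against eds1-2 and 0.76 against R493A. OM66, an ATPase of the outer mitochondrial membrane that lies in the chromosome 3 region, had 287, 223 and 89.3 CPM in Col-0 and between 25.7 and 79.0 elsewhere (2.15, SE 0.28, adjusted p = 0.002). CYP81D8, a cytochrome P450 that responds to xenobiotics, had 260, 82.5 and 13.7 CPM in Col-0 and between 10.6 and 22.9 elsewhere (2.76, SE 0.53, adjusted p = 0.0131). Its library of replicate 3 lay inside the range of the other lines, and the difference was −0.37 (adjusted p = 0.792) with that library alone and 1.44 (adjusted p = 0.116) without replicate 1. GSTU4, a tau-class glutathione transferase, had 309, 409 and 197 CPM against 97.6 to 178 (1.14, SE 0.21). The count of called genes was 1 without Col-0 replicate 1, 4 without replicate 2 and 0 with replicate 3 alone.

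Among called genes of the other chromosomes with at least 5 CPM and no overlap between Col-0 and the rest, the 8 largest increases were those of ABCB4, GSTL1, GSTU3, AT5G44585, GPT2, AT2G17740, AT1G35210 and CYP710A1, from 3.48 down to 1.85. AT5G44585 and AT1G35210 are annotated as uncharacterised and AT2G17740 as a C1 domain protein; all 3 lost the call without Col-0 replicate 2, where their differences were 1.09, 1.25 and 0.74. GSTU3, a glutathione transferase, had 28.5, 59.6 and 13.7 CPM in Col-0 and between 5.04 and 12.6 elsewhere (2.07, SE 0.36, adjusted p = 0.0084). GSTL1, of the lambda class, had 13.1, 37.1 and 7.11 CPM against 1.9 to 7.10 (2.15, SE 0.39). GPT2, a glucose 6-phosphate carrier of the plastid, had 84.7, 269 and 76.5 CPM against 20.8 to 65.7 (1.99, SE 0.34). In these genes every Col-0 library lay above the 9 others, with replicate 3 closest to them and, for GSTL1, all but level with the highest of them. CYP710A1, a sterol desaturase that makes stigmasterol, had 16.8, 16.9 and 6.11 CPM against 2.93 to 4.95 (1.85, SE 0.26, adjusted p = 0.00335), and it was called against each of the 3 lines. ABCB4, an auxin transporter, had the largest difference of these genes, 3.48 (SE 0.58), but its levels were 590, 67.8 and 27.1 CPM against 17.9 to 24.3, and the difference without replicate 1 was 1.2 (adjusted p = 0.0318). Without Col-0 replicate 2, GSTU3 fell to 1.39 (adjusted p = 0.0599), GSTL1 to 1.23 (0.0754) and GPT2 to 1.16 (0.0487). GSTU3, GSTL1, GPT2, CYP710A1 and ABCB4 were not called with replicate 3 alone. By annotated family, with families chosen after values were seen, 10 of 38 glutathione transferases were higher and 1 lower. Of 100 UDP-glycosyltransferases, 26 were higher and 4 lower. The shares over all tested genes were 6.85% higher and 3.55% lower.

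Genes of pattern-triggered immunity, of indole compounds and of ethylene signalling had smaller medians. Of 26 tested pattern-triggered immunity genes, 7 were higher and none lower, with a median of 0.67; by Col-0 library the medians were 0.57, 1.2 and −0.04. SOBIR1, a co-receptor of receptor-like proteins, had 267, 252 and 172 CPM against 109 to 217 (0.70, SE 0.13, adjusted p = 0.0131). MPK11, a MAP kinase, had 38.1, 76.3 and 13.0 CPM against 6.12 to 18.9 (1.68, SE 0.37), and its replicate 3 lay within the others; without replicate 2 it differed by 0.96 (adjusted p = 0.166). The list had 2 called genes without Col-0 replicate 1, 0 without replicate 2 and 24 without replicate 3. Of 20 tested genes for camalexin and indole glucosinolates, 5 were higher and none lower, with a median of 0.64. CYP81F2, which modifies indole glucosinolates, had 27.9, 60.8 and 12.5 CPM against 7.26 to 12.8 (1.87, SE 0.31, adjusted p = 0.00788), so that replicate 3 overlapped the others. MYB51, a regulator of indole glucosinolate synthesis, had 24.5, 90.9 and 25.3 CPM against 7.36 to 34.4 (1.89, SE 0.36), and CYP71A12, of indole-3-carbonyl nitrile synthesis, had 22.0, 71.7 and 2.98 CPM against 1.05 to 6.15 (3.30, SE 0.59). Both calls ended without Col-0 replicate 2, where MYB51 differed by 0.97 (adjusted p = 0.0801) and CYP71A12 by 1.95 (adjusted p = 0.0949). Without Col-0 replicate 1 this list had 3 called genes, without replicate 2 it had 1, and without replicate 3 it had 9 higher and 1 lower. Of 15 tested ethylene genes, 4 were higher and none lower (median 0.68), among them EBF2, an F-box protein that removes EIN3 (0.90, SE 0.16), and 2, 1 and 8 were called without Col-0 replicate 1, 2 and 3.

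Among WRKY transcription factors as a family, 16 of 51 were higher and none lower. Of 85 annotated TIR-domain receptor proteins, 20 were higher and 1 lower, and of 32 cysteine-rich receptor-like kinases 7 were higher and none lower. The shares over all tested genes were 6.85% higher and 3.55% lower. The medians of these families by Col-0 library were 0.77, 0.77 and 0.04 for WRKY factors, 0.43, 0.94 and −0.27 for TIR-domain proteins and 0.49, 1.12 and −0.17 for the kinases. Replicate 3 was near the mean of the other lines in the WRKY median and below it in the medians of the other families. Of 9 tested senescence genes 4 were higher (median 1.22), WRKY6, a WRKY factor of senescence, with 219, 201 and 125 CPM against 67.4 to 114 (1.09, SE 0.16, adjusted p = 0.00404). That list had 2, 1 and 7 called genes without Col-0 replicate 1, 2 and 3.

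W-box cores were more frequent upstream of genes that were higher in Col-0 outside the chromosome 3 region. The 250 bases before the start could be read for 18647 of the tested genes, and 45.2% of all of these held TTGAC on either strand. The share was 58.2% of 1160 higher genes outside the region, 65.9% of the 528 that were higher by at least 1, 43.1% of 631 lower genes outside it, and 40% of 125 higher genes within it, where 46.2% of all tested genes held the motif. The as-1 core TGACG, to which TGA factors are known to bind and which overlaps the W-box core in the letters TTGACG, was held by 19.6% of all promoters, 22.1% of those 1160 and 25.6% of those 528. The G-box CACGTG was held by 7.58% of all, 5.69% of the higher genes outside the region and 9.67% of the lower ones, and the evening element AAATATCT by 5.12%, 5.09% and 5.86%. These shares are descriptions without a test, and a match is not a binding site. Upstream sequences of 3 detoxification and indole genes are given in the same manner, since their promoters show from 2 to 5 of the cores (CYP81D8, chr4:17571744-17571993 on the minus strand; GSTU3, chr2:12629641-12629890 on the minus strand; CYP81F2, chr5:23187590-23187839 on the plus strand).
CYP81D8: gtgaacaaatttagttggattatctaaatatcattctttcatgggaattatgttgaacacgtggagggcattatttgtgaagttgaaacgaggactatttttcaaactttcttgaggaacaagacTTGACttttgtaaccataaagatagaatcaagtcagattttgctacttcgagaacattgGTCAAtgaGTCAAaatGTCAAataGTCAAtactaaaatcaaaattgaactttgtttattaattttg
GSTU3: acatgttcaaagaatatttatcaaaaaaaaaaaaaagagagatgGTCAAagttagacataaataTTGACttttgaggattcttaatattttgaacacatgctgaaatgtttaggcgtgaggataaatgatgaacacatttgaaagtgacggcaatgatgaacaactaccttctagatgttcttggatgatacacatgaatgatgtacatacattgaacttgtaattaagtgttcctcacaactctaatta
CYP81F2: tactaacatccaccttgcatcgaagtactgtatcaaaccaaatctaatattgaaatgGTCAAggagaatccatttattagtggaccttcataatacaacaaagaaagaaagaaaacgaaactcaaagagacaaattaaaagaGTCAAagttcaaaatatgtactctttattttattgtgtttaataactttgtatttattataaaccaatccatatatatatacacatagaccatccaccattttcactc
CYP81D8 holds 5 cores, 4 of them as GTCAA close to the start, and GSTU3 and CYP81F2 hold 2 each. These promoters were picked for their cores. The number of cores per promoter was not compared over all genes, so they do not show what is usual.

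As a class, genes lower in Col-0 differed by smaller steps, with a median of −0.65 beside 0.94 for the higher genes. Their class medians were −0.73, −0.73 and −0.48 in Col-0 replicates 1, 2 and 3, but single genes varied more. Among non-overlapping genes of the other chromosomes with at least 5 CPM, the largest decreases were AT2G15020 (−2.09), ATCSLA15 (−1.91) and AT1G78450 (−1.77). Leaving out any of 7, 2 and 6 libraries, respectively, ended these calls. MYB29, a regulator of aliphatic glucosinolate synthesis, had 5.29, 5.35 and 5.02 CPM in Col-0 and between 8.62 and 18.9 elsewhere (−1.39, SE 0.26, adjusted p = 0.0118). Without Col-0 replicate 1 or 2 the difference was −1.41 each time, with an adjusted p of 0.0528 and 0.0501. MYB29 was the only called gene of 11 tested for aliphatic glucosinolates, but all 11 had negative differences, with a median of −0.92 against the mean and −0.60, −1.31 and −0.46 in Col-0 replicates 1, 2 and 3. All 31 tested photosynthesis genes likewise had negative differences (median −0.29), largest in Col-0 replicate 1. The medians were −0.64, −0.18 and −0.11 in Col-0 replicates 1, 2 and 3. Of these genes 1 was called: RBCS1B, a small subunit of Rubisco, at 228, 249 and 301 CPM in Col-0 and between 395 and 467 elsewhere (−0.75, SE 0.11, adjusted p = 0.00495). RBCS1B kept its call without any 1 of the 12 libraries, and without Col-0 replicate 3 the list had 8 lower genes. Over all tested genes, 9384 of 18770 differences were positive.

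A few light and clock genes were also among the lower ones. PKS2, a phytochrome kinase substrate, had 2.86, 2.29 and 4.47 CPM in Col-0 against 6.18 to 13.4 (−1.37, SE 0.27), and RVE1, a clock-controlled MYB-like factor that links to auxin, had 2.23, 1.95 and 2.88 CPM against 3.48 to 6.85 (−1.13, SE 0.23). Neither overlapped the other lines, and both missed the threshold without Col-0 replicate 1 or 2, with an adjusted p between 0.0684 and 0.0853. LUX, of the evening complex, lies in the chromosome 3 region and was higher (0.67, SE 0.16, adjusted p = 0.0306), a call lost when any of 5 libraries was left out. Of 18 tested clock genes, 1 was higher and 2 lower, beside 6.85% and 3.55% of all tested genes. The lower ones were RVE1 and LNK2 (−0.46, adjusted p = 0.0478, edgeR). LNK2 lost its call when any of 11 libraries was left out. The list median was −0.19, and without Col-0 replicate 1 no clock gene was called. SWEET1, a sugar transporter, had 2.86, 2.97 and 7.01 CPM against 7.23 to 22.5 (−1.33, SE 0.36), and TBL26 had 12.4, 11.9 and 29.3 CPM against 29.9 to 89.8 (−1.49, SE 0.40); leaving out any of 9 and of 8 libraries in turn ended these 2 calls. By family, 16 of 230 pentatricopeptide repeat proteins were lower and 2 higher, with 45 positive differences. Of 36 auxin-responsive SAUR genes, 6 were lower and 3 higher. The shares over all tested genes were 3.55% lower and 6.85% higher, and the families were chosen after values were seen.

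**Figure D5:**
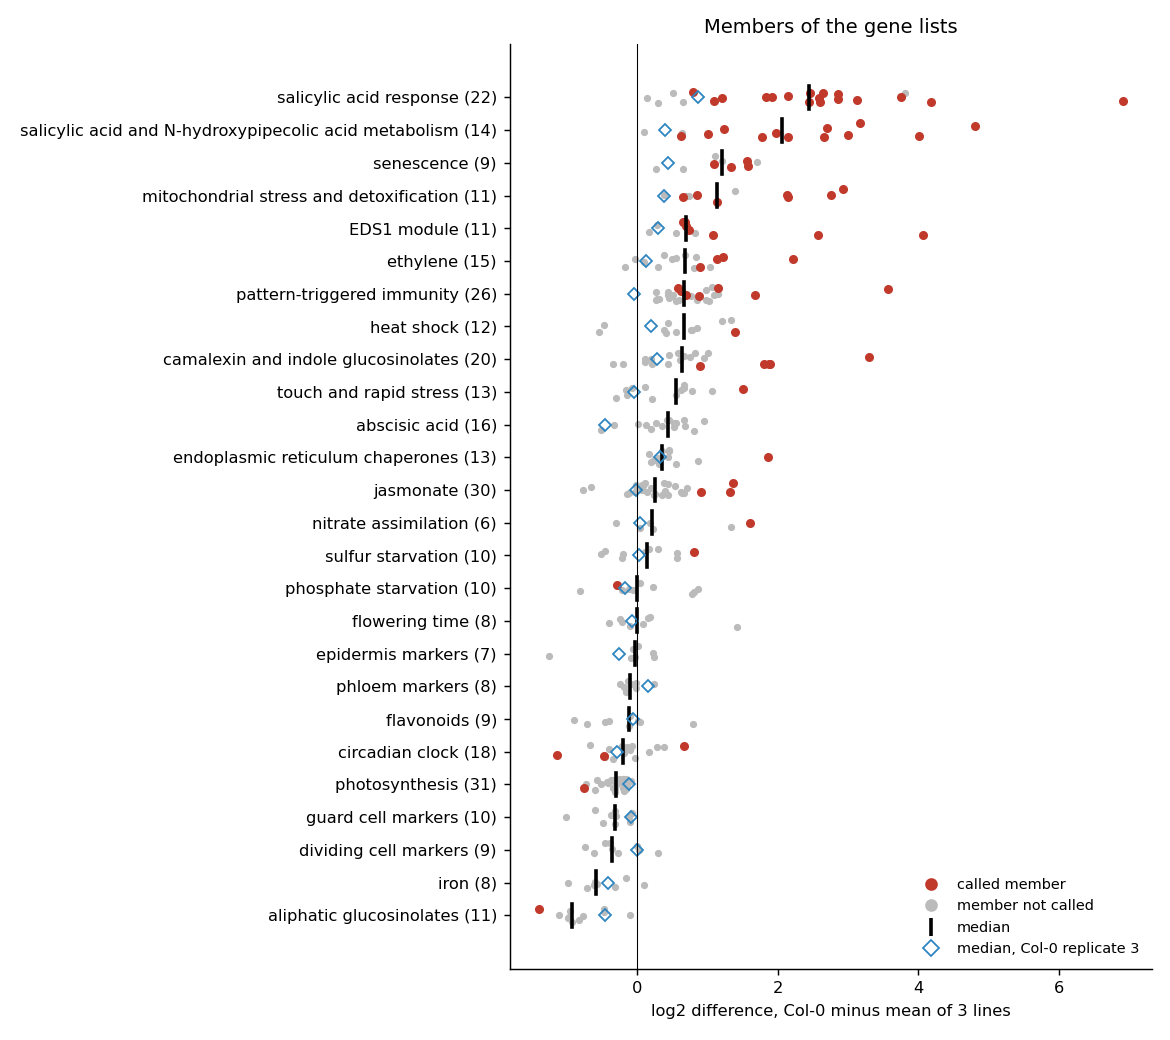
Log2 difference between Col-0 and the mean of the 3 lines for each tested member of the 26 gene lists, with the number tested in parentheses. Red points are called and grey points not, black bars are list medians, and open diamonds are the medians for Col-0 replicate 3 alone, which lie nearer to 0 than the bar for both salicylic acid lists (0.87 and 0.39 beside 2.45 and 2.06).

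The remaining lists had called genes at shares near those of all genes, 6.85% higher and 3.55% lower, or none. Of 30 tested jasmonate genes 3 were higher, among them CYP94B3, the jasmonate-isoleucine hydroxylase, which lies in the chromosome 3 region at 1151, 1326 and 641 CPM in Col-0 against 270 to 604 (1.37, SE 0.25); 0, 0 and 7 of the list were called by edgeR without Col-0 replicate 1, 2 and 3. No gene of 16 for abscisic acid, 8 for iron, 9 for flavonoids or 8 for flowering time was called by edgeR. At an unadjusted p under 0.05 these lists had 0, 3, 4 and 2 genes; DESeq2 called 0, 1, 1 and 1, and limma-voom called 0 in each. Heat shock, touch, endoplasmic reticulum chaperones, sulfur and nitrate each had 1 called gene, all higher, and phosphate starvation had SQD1, of sulfolipid synthesis, lower (−0.29, SE 0.08), a call lost when any of 9 libraries was left out. ASN1, the asparagine synthetase that stood for nitrate, is again a gene of the chromosome 3 region, with 8.19, 13.4 and 10.7 CPM in Col-0 against 1.74 to 6.41 (1.61, SE 0.31). Without Col-0 replicates 1, 2 and 3 in turn, edgeR called 4, 0 and 4 heat shock genes.

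Markers of other leaf cell types were not called with all libraries, but some were under other settings. None of 10 guard cell, 8 phloem, 9 dividing cell and 7 epidermis markers was called by edgeR, with 2, 0, 1 and 0 at an unadjusted p under 0.05; DESeq2 called 1 guard cell marker and limma-voom none. Quality weights in limma-voom gave 3, 1, 3 and 1 lower markers, and edgeR without Col-0 replicate 3 gave 2, 0, 1 and 1. The list medians were −0.31, −0.10, −0.36 and −0.03. All 10 guard cell markers had negative differences; their summed level was 1989 to 3757 CPM in Col-0 and 2747 to 4625 CPM elsewhere, and its part in the other differences was not tested. Summed levels were 733 to 858 CPM in Col-0 and 765 to 1003 CPM elsewhere for phloem, 4.58 to 10.3 and 7.46 to 12.1 CPM for dividing cells, and 1837 to 2343 and 1465 to 2361 CPM for epidermis. The dividing cell markers CYCB1;1, CYCB1;4 and CDKB1;1 were too low to be tested. Photosynthesis genes summed to 64156 to 91116 CPM in Col-0 and 87822 to 106595 CPM elsewhere, a high level in every library, as the leaf label implies. In whole leaves, fewer cells of a type and less RNA per cell cannot be told apart.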

How the data were processed

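Poly(A) RNA of 12 leaf pools was sequenced, and the authors deposited raw read counts per gene. Per the submitters' processing notes, the genome build was TAIR10 and TopHat2, HTSeq and limma were used; their versions and settings are not given in the sources used here. Entries that name no gene, 9.69% to 22.9% of a library's column total, were left out. Reads that map to several places were set aside by the authors' counting, so near-identical copies have uncertain counts, and with the unstranded TruSeq v2 kit overlapping genes share reads. Of 32678 identifiers, 31912 had an entry in RefSeq's annotation of TAIR10.1, the source of positions, names and upstream sequences. The labels call each pool of plants a biological replicate.

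The tests used edgeR 4.0.16 under R 4.3.3. After filterByExpr and TMM scaling, all 12 libraries entered 1 quasi-likelihood model of genotype without covariates. Col-0 was tested against the mean of the 3 lines, and the lines jointly against each other, with Benjamini-Hochberg adjustment over 18770 genes. Where no tool is named, an adjusted p is edgeR's. Log2 differences use a prior count of 0.125, differences per library one of 0.5, and levels are TMM-scaled CPM. The script was tested on simulated data.

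Genes named are EDS1 and EDS1B, the 8 strongest increases and 8 strongest decreases on chromosome 3 and as many elsewhere (called, at least 5 CPM on average, no overlap of Col-0 with the others), up to 3 called members per list with the lowest adjusted p, genes at 0 on 1 side, and genes called with Col-0 replicate 3 alone, the last chosen after their values were seen. The members, the 26 lists (357 of 375 genes tested) and the families were chosen with earlier results of these data known. Alternatives were other scaling, no filter, DESeq2 1.42.0, limma 3.58.1 voom with and without quality weights, the replicate number as a block, sequencing run and lane as covariates or alone, each library left out, and the 9 other libraries as 1 group.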

Additional observations from a re-analysis of the deposited data

How the results depend on the processing

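The number of genes called moved with most settings. Higher, lower and among-line counts (1285, 666 and 40) were 1309, 647 and 37 with DESeq2 size factors and 1254, 580 and 54 with no filter on low counts. They were 2054, 1369 and 165 with DESeq2, 671, 497 and 20 with limma-voom, and 2078, 1549 and 181 with quality weights in limma-voom. The sequencing run as a covariate gave 728, 374 and 23, the main sequencing run alone 371, 134 and 11, the lane as covariate 26, 6 and 5, libraries of lane 7 alone 18, 6 and 2, and Col-0 replicate 3 alone 39, 11 and 105. In the fits with the lane as covariate, lane 7 alone and Col-0 replicate 3 alone, that 1 library sets the Col-0 level. The 9 other libraries as 1 group gave 1480 higher and 919 lower. Leaving out 1 library in turn gave 294 to 2695 higher, 56 to 2006 lower and 18 to 106 among the lines, where the lowest counts for Col-0 were without its replicate 1 or 2 and the highest without its replicate 3, the same fit as Col-0 replicates 1 and 2 alone. A minimum change of 1 left 613 higher and 146 lower. Among windows of chromosome 3 with at least 20 tested genes, the highest share called was 44.4% by 2 Mb and 46.8% by 1 Mb. The cause of these differences was not tested.

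With the replicate number as a block, 458 genes were higher, 197 lower and 25 differed among the lines. Of 18 pairs of same-numbered libraries 4 had deviations correlated over 0.1 (r from −0.58 to 0.449). These correlations cannot decide whether libraries of the same number were handled together. The 3 pairs of w.tEDS1 with R493A were all over 0.1 (0.173, 0.449 and 0.186), while those of Col-0 with eds1-2 were all negative (−0.126, −0.139 and −0.546). Deviations were taken from the mean of each line, so the 3 pairs of 2 lines are not independent of each other. The remaining pair over 0.1 was eds1-2 with R493A in replicate 3 (0.327). For pairs with Col-0 the highest value was 0.0631.

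The share of the region that was called lay between 16.7% and 43.6% over the leave-one-out fits, beside 1.60% to 24.2% elsewhere, and was 5.36% beside 0.0274% with the lane as a covariate. Of 102 called genes that are named, 61 kept the call in each leave-one-out fit, 48 of 59 on chromosome 3 and 13 of 43 elsewhere. Many named genes of chromosome 3 were chosen because they were called with Col-0 replicate 3 alone. Shares kept on chromosome 3 and elsewhere therefore cannot be compared. Without Col-0 replicate 1, 25 of the 102 lost the call, and without replicate 2, 39.

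Some differences changed sign. With the lane as a covariate EDS1 was −0.20, MPK11 −0.20, CYP71A12 −0.38, ERS2 −0.16 and CYP81D8 −0.44. Within lane 7 alone they were EDS1 −0.18, MPK11 −0.19, CYP71A12 −0.37, ERS2 −0.15 and CYP81D8 −0.42. With Col-0 replicate 3 alone EDS1 was −0.068, MPK11 −0.040, CYP71A12 −0.14 and CYP81D8 −0.37, and EDS1 was −0.43 with the other libraries as 1 group. AT1G21580, SYD and AT5G24740, called as lower with Col-0 replicate 3 alone and not called with all 3 Col-0 libraries (−0.039, −0.065 and −0.047), were 0.062, 0.046 and 0.048 with quality weights. Over the leave-one-out fits they ran from −0.20 to 0.21, −0.24 to 0.21 and −0.23 to 0.22, with the positive values without Col-0 replicate 3. For a gene with no read in Col-0, 3 counts over its libraries set a limit of 0.0465 CPM.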

Other observations

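Some genes differed among w.tEDS1, eds1-2 and R493A because R493A stood apart, and they were chosen after their values were seen. For AT4G16870, on chromosome 4, the mean was 2.25 ± 0.807 CPM in R493A (SD, n = 3 in each line), beside 53.2 ± 11.9 for Col-0, 67.4 ± 13.8 for w.tEDS1 and 71.6 ± 18.5 for eds1-2, and the adjusted p among the 3 lines was 0.000284 by edgeR. AT5G24240, on chromosome 5 and annotated as a phosphatidylinositol 4-kinase gamma-like protein, went the other way: R493A had 30.5 ± 3.99 CPM, eds1-2 had 1.51 ± 1.11, w.tEDS1 had 0.418 ± 0.140 and Col-0 had 0.361 ± 0.193. Both were called against the mean of the lines although Col-0 was close to w.tEDS1, so a call against the mean can rest on 1 line. Of the flowering regulators, MAF5, a relative of the flowering repressor FLC, had 15.9 ± 3.13 CPM in R493A, while eds1-2 had 1.72 ± 0.729, w.tEDS1 had 0.921 ± 0.603 and Col-0 had 2.24 ± 0.827 (adjusted p = 0.00381 among the lines). MAF5 was not called for Col-0.

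Called genes differed in annotated length, with a median of 2141 bases for genes higher in Col-0, 2792 bases for lower genes and 2432 bases for all tested genes. Cytosolic ribosomal protein genes had 47 positive differences of 266 tested and a median of −0.13. Their medians were −0.18, −0.37 and 0.14 in Col-0 replicates 1, 2 and 3. Of the 266, 5 were called higher and 3 lower, beside 6.85% and 3.55% of all tested genes.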
